A study of Mus musculus with 8 samples.

Results

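The epidermal growth factor (EGF) receptor family and its ligands were examined in mouse embryonic stem cells in which the transcription factor JUN was switched on while bromodomain inhibitors were present. The set was chosen by gene name and holds 8 of the 50600 rows of the table. It comprises the ligands Hbegf, Areg, Ereg and Tgfa, the receptors Egfr, Erbb2 and Erbb3, and the feedback inhibitor Errfi1. Poly(A) RNA was sequenced from 8 libraries, 2 in each of 4 groups: the DMSO vehicle, PFI-3 alone, BI-9564 alone, and the combination of both compounds (P+B). PFI-3 binds the bromodomains of the BAF ATPases SMARCA2 and SMARCA4 and of PBRM1, and BI-9564 binds those of BRD9 and BRD7.

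All libraries came from the same kind of cell, OG2 embryonic stem cells carrying a doxycycline-inducible c-Jun transgene (c-Jun_TetOn_mESC), at passage P12 and of mixed strain labelled 1/2 129SVJ, 3/8 C57B6 and 1/8 CBA. Every library, the DMSO group included, was labelled with doxycycline at 2 µg/ml and a time of 6 h. The paper's legend for RNA-seq with these compounds gives 6 h as the compound treatment, within a longer JUN induction. The feeder-free medium of all groups contained LIF, Chir99021 and PD0325901, an inhibitor of the kinase MEK, which acts downstream of EGF receptors. The labels give no dose for either compound, so whether each dose was the same alone and in P+B is not known. In its colony assay the paper used a lower dose of each compound in P+B than alone. No library without doxycycline was compared, so the response to JUN itself cannot be read from these groups, and every difference is one between compound treatments of JUN-induced cells. The labels do not say whether the 2 libraries of a group came from separate cultures, so the p-values measure only the spread between them, which may be technical.

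EGF family ligands are made as membrane proteins, and proteases of the ADAM family cut them free so that they can bind ErbB receptors on the same or neighbouring cells. EGFR binds HB-EGF, amphiregulin, epiregulin and TGF-alpha, whereas ERBB3 binds neuregulins and has little kinase activity of its own, and ERBB2 has no known soluble ligand and acts as the partner in receptor dimers. Active receptors signal through RAS, RAF, MEK and ERK, and several of the genes that this route switches on, Errfi1 among them, encode proteins that restrain it. Promoters of ligand genes such as Hbegf and Areg are known in other cells to respond to AP-1, the dimeric factor of which JUN is a subunit.

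Values were TPM, transcript levels scaled to a fixed library total, and were stored as whole numbers, so each value carries a rounding step of up to a full unit. Their sums lay between 991574 and 991897 in all libraries. TPM keeps no record of depth, and counting error is therefore unknown. TPM is already divided by transcript length, so levels of different genes may be set beside each other. The 8 pluripotency markers, which include Pou5f1, Nanog and Sox2, all averaged at least 5 TPM, with sums of 3710 to 4884 in DMSO, 4145 to 5139 in PFI-3, 3290 to 4327 in BI-9564 and 3471 to 4413 in P+B. Of these 8 markers, without pairing of libraries, 1 was called lower with P+B and none with either compound alone. The median log2 fold change was 0.36 for PFI-3 (8 of 8 above 0) and −0.25 for BI-9564 (7 of 8 below 0). Pairing libraries of the same number (the replicate block) gave 1 marker called lower for BI-9564 and none for PFI-3. For P+B it gave 1 called higher and 1 called lower. Between BI-9564 and PFI-3 the median was −0.70, with 8 of 8 below 0, 1 called lower and 5 called lower under the replicate block. None of 10 fibroblast or feeder markers and none of 6 primitive endoderm markers averaged 5 TPM, and 6 of the fibroblast markers were at 0 in every library. The sum of 6 trophoblast markers lay at 132 to 180 in DMSO, 99 to 122 in PFI-3, 92 to 113 in BI-9564 and 57 to 76 in P+B. Most of that sum was Krt8, an epithelial keratin that is not limited to trophoblast.

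Only part of the family reached the level set for testing in these cells. Of the 8 genes, 4 averaged at least 5 TPM over the libraries, namely Hbegf, Errfi1, Erbb3 and Erbb2, and were tested. The other 4 lay at or near 0. Ereg, which encodes epiregulin, was listed at 0 in all 8 libraries. Areg, which encodes amphiregulin, reached 1 TPM in BI-9564 replicate 1 and was at 0 in the other 7 libraries. Tgfa was at 1 in DMSO replicate 1 and in both P+B libraries and at 0 in the rest. Egfr itself, the receptor that binds these ligands, ranged from 0 to 2 TPM, with 0 and 1 in DMSO, 1 and 1 in PFI-3, 2 and 1 in BI-9564, and 0 and 1 in P+B. At this rounding no difference between treatments could be read for any of these 4 genes.

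The rest of the family was just as restricted. Of the 7 EGF family ligand genes outside the set, Nrg1, which encodes neuregulin 1, was the only one with a mean of at least 5 TPM. Btc, Epgn and Nrg3 were at 0 in all libraries, Egf reached at most 1 TPM, and Nrg2 and Nrg4 lay between 1 and 3. The receptor gene Erbb4 was at 0 throughout. The ligand and receptor genes that averaged at least 5 TPM were thus Hbegf, Nrg1, Erbb2 and Erbb3. Nrg2 and Nrg4 were at low levels in every library, and Egfr was at 2 TPM or less.

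**Figure D1:**
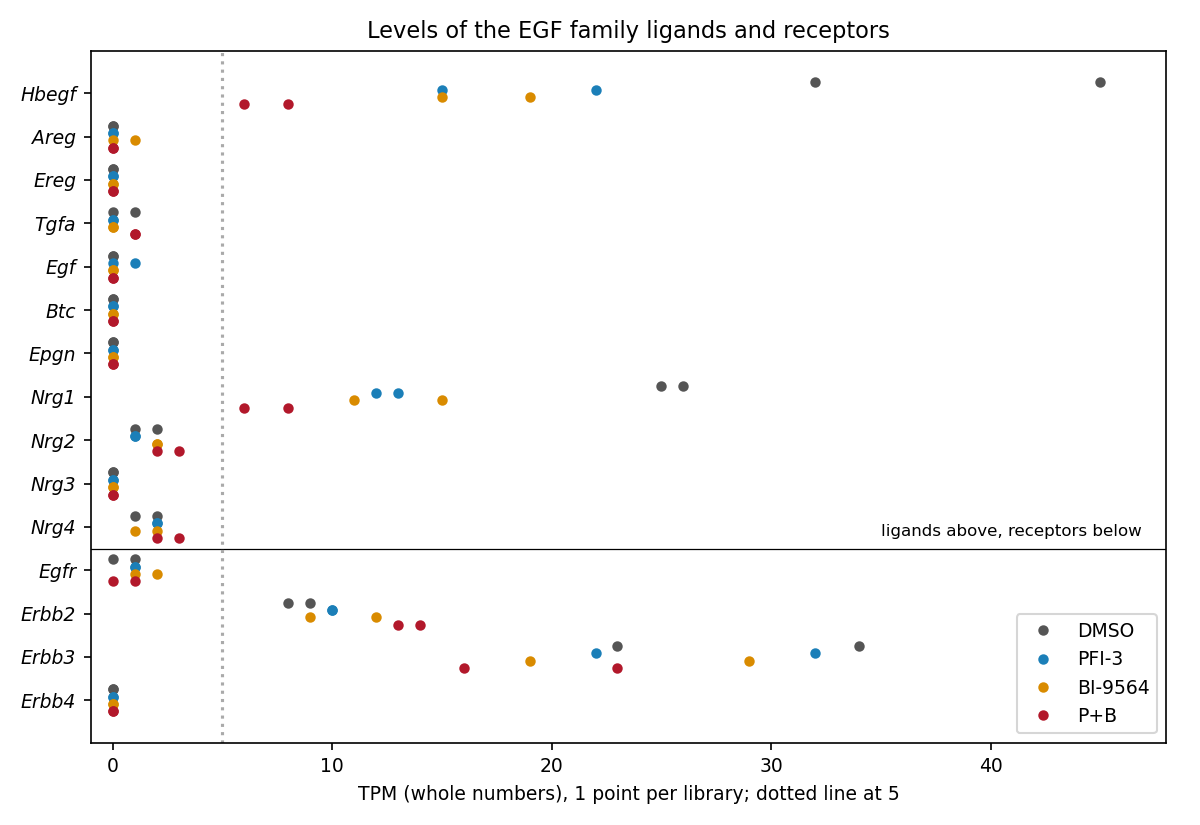
Level in TPM (x axis) of the 11 EGF family ligand genes and 4 receptor genes (rows), 1 point per library, coloured by treatment, with a dotted line at 5 TPM. Hbegf, Nrg1, Erbb2 and Erbb3 lie to the right of the line in every library, and the other 11 genes stay at 3 TPM or less.

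Summed over the 11 ligand genes, the level was 76 and 59 TPM in DMSO, 38 and 31 in PFI-3, 39 and 29 in BI-9564, and 22 and 18 in P+B. Both P+B libraries were below each single-compound library, and these were below both DMSO libraries. Hbegf and Nrg1 made up 93.4% and 96.6% of the sum in DMSO and 72.7% and 66.7% in P+B, where the few TPM of Nrg2 and Nrg4 weighed more. By contrast the sum of the 4 receptor genes overlapped between treatments, at 42 and 33 TPM in DMSO and 36 and 31 in P+B.

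Hbegf, the gene of heparin-binding EGF-like growth factor, had the largest change with P+B among the 4 tested genes. It lies on the minus strand of chromosome 18 in GRCm38, the build named for these data (mm10), and no other annotated gene overlaps it. Its level was 45 and 32 TPM in DMSO, 22 and 15 in PFI-3, 19 and 15 in BI-9564, and 8 and 6 in P+B. Both P+B libraries lay below all 6 others, and both DMSO libraries lay above all 6 others, while the PFI-3 and BI-9564 libraries overlapped. The means were 38.5 ± 9.19 TPM in DMSO, 18.5 ± 4.95 in PFI-3, 17 ± 2.83 in BI-9564 and 7 ± 1.41 in P+B (SD, n = 2), so that P+B stood at 18.2% of DMSO.

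Hbegf fell with P+B. Its log2 fold change against DMSO was −2.30 on the log2(TPM + 1) scale, with a standard error of 0.26 and a 95% interval of −2.89 to −1.70 (limma, adjusted p = 0.003105). A gene was called changed where the adjusted p was under 0.05 and the fold at least 1.5. Of the 4 tested genes of the set, 2 were called in this comparison, Hbegf and Errfi1, and both were lower. The background was 2.72% of the 10222 tested genes called lower and 4% called in either direction. Under the replicate block, which pairs libraries of the same number, the same 2 were called and the background lower was 4.1%. The Hbegf call was lost without DMSO replicate 1, the highest library, where the log2 fold change was −2.06 and the adjusted p 0.0535. Exact permutation of 2 libraries against 2 cannot give a two-sided p below 0.333, so no such test was used for single genes.

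With either compound alone both Hbegf values lay below those of DMSO, yet the test was not passed without pairing. The mean in PFI-3 was 48.1% of that in DMSO, with a log2 fold change of −1.02 and a standard error of 0.26 (limma, unadjusted p = 0.003947, adjusted p = 0.5144). PFI-3 called none of the 4 tested genes of the set and 0% of all tested genes in limma. Of the 10222 tested genes, 694 had an unadjusted p under 0.05, where a share of 0.05 would be expected without any difference. In BI-9564 the mean was 44.2% of DMSO, with a log2 fold change of −1.12, a standard error of 0.26 and an adjusted p of 0.1309. BI-9564 called none of the 4 tested genes of the set, beside 0.108% of all tested genes. Under the replicate block Hbegf was called for BI-9564 (limma, adjusted p = 0.0216), beside 1.04% of genes called lower, but not for PFI-3. The 2 compounds could not be ranked on Hbegf: BI-9564 against PFI-3 gave a log2 difference of −0.10 with a 95% interval of −0.69 to 0.49 (limma, adjusted p = 0.9086). In that comparison none of the 4 tested genes of the set and 0.108% of all tested genes were called.

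The combination was also set against each compound. Hbegf in P+B differed from PFI-3 by −1.27 on the log2 scale, with an interval of −1.87 to −0.68 (limma, adjusted p = 0.0622), and no gene of the set was called beside 1.31% of all genes. From BI-9564 it differed by −1.17 (adjusted p = 0.2232), and again no gene of the set was called, beside 0.196% of all genes. Both differences were called under the replicate block, with adjusted p of 0.0061 against PFI-3 and 0.0163 against BI-9564, where 2.4% and 0.724% of genes were called lower. Matched by replicate number, P+B held 0.178 and 0.188 of the DMSO level of Hbegf, PFI-3 0.489 and 0.469, and BI-9564 0.422 and 0.469. A departure of P+B from the sum of the 2 single-compound log2 changes was tested as an interaction term, which for Hbegf was −0.15 with an interval of −0.99 to 0.69 (limma, adjusted p = 1). No gene of the set and 0% of all genes were called for the interaction, with 333 genes at an unadjusted p under 0.05. The interaction and the comparisons with single compounds take each dose as equal alone and in P+B, which the labels do not state. The comparisons with DMSO share the same 2 DMSO libraries, so they are not independent of each other.

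**Figure D2:**
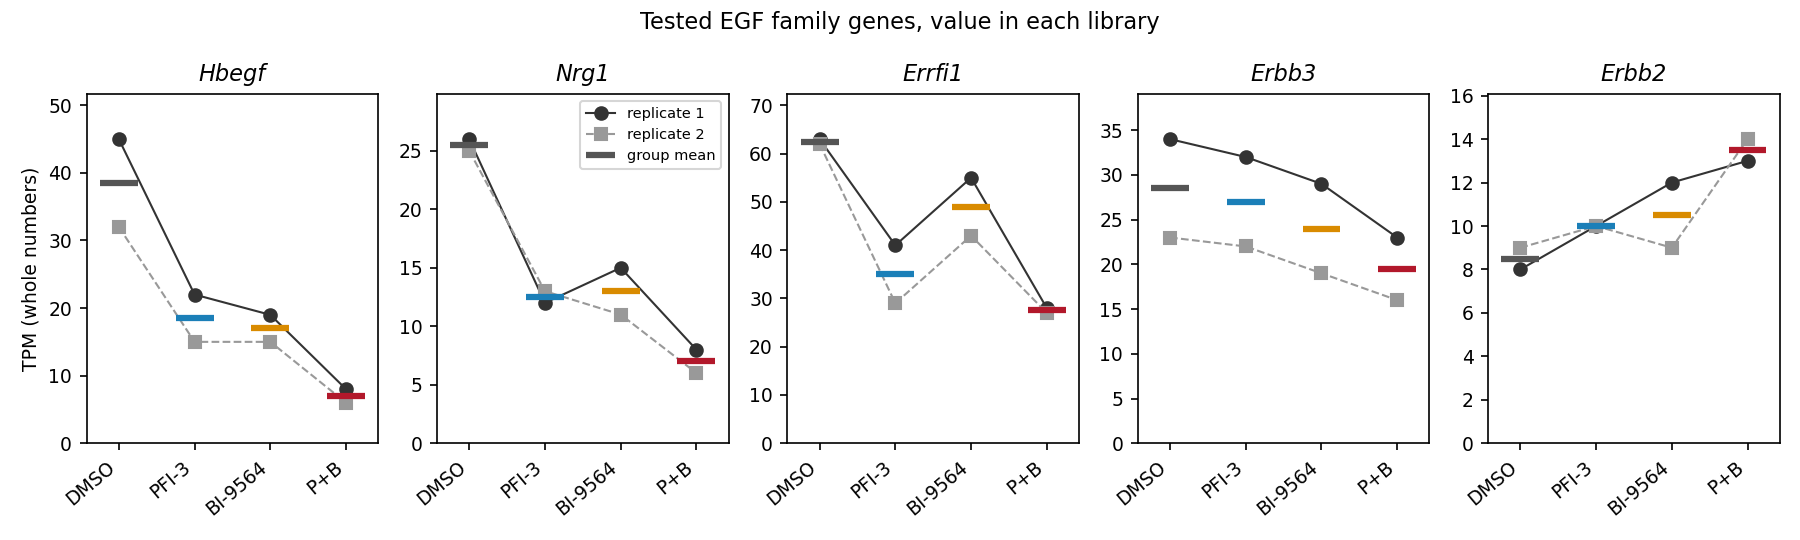
Level in TPM (y axis, from 0) of Hbegf, Nrg1, Errfi1, Erbb3 and Erbb2 in each of the 8 libraries, by treatment (x axis), with a line for each replicate number and a bar for each group mean. Hbegf steps down from 45 and 32 TPM in DMSO to 8 and 6 in P+B, Nrg1 does so from 26 and 25 to 8 and 6, Errfi1 is lowest in P+B at 28 and 27, and Erbb3 keeps a gap between replicate numbers in all 4 groups.

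Measured beside Hbegf, Krt8 was at 163 and 114 TPM in DMSO, 101 and 81 in PFI-3, 97 and 69 in BI-9564, and 53 and 30 in P+B, and it fell with P+B by 1.75 on the log2 scale (limma, adjusted p = 0.0155). The Krt8 call was lost without DMSO replicate 1, DMSO replicate 2 or P+B replicate 2, with adjusted p of 0.1177, 0.0667 and 0.1122, and at 0.0711 with no filter. The other 5 trophoblast markers went in both directions. Hand1 stood at 4 and 6 TPM in DMSO and 1 and 1 in P+B, and Cdx2 at 1 and 0 in DMSO and 5 and 10 in P+B. Eomes was at 4 and 7 in DMSO and 6 and 8 in P+B, Tfap2c at 8 and 5 against 11 and 8, and Elf5 was at 0 in 7 of 8 libraries. Of these 5 only Eomes and Tfap2c averaged 5 TPM or more and were tested, and neither was called. Jun, the induced gene, was at 1970 and 2877 TPM in DMSO, 1570 and 2227 in PFI-3, 2071 and 3011 in BI-9564, and 1569 and 2159 in P+B. For P+B against DMSO the log2 fold change of Jun was −0.37 (limma, adjusted p = 0.4366), or 0.796 and 0.750 of DMSO by replicate number. Under the replicate block Jun had an adjusted p of 0.0016 at a fold below 1.5. The part of the Krt8, Hand1, pluripotency marker and Jun differences in the Hbegf result was not tested. In these bulk libraries a smaller number of Hbegf-expressing cells cannot be told apart from less Hbegf RNA per cell.

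Nrg1, the other ligand gene that averaged at least 5 TPM, followed the same order. This gene spans chr8:31814551-32884029 on the minus strand of GRCm38, and Gm26578 and Gm22140 overlap it on the opposite strand. Whether reads were counted by strand is not stated, so reads of these genes may have been mixed. The values of Nrg1 were 26 and 25 TPM in DMSO, 12 and 13 in PFI-3, 15 and 11 in BI-9564, and 8 and 6 in P+B. DMSO lay above and P+B below all other libraries. Nrg1 fell with P+B, with a log2 fold change of −1.74, a standard error of 0.22 and an interval of −2.24 to −1.24 (limma, adjusted p = 0.005165). Its changes with PFI-3 and BI-9564 were −0.97 and −0.94 and did not pass the test (adjusted p = 0.5061 and 0.1309). Without DMSO replicate 1, DMSO replicate 2 or P+B replicate 2 the P+B call was lost, with adjusted p of 0.0623, 0.0546 and 0.0514. The ratio of Hbegf to Nrg1 was 1.73 and 1.28 in DMSO and 1.0 in both P+B libraries. The libraries overlapped in this ratio between DMSO, PFI-3 and BI-9564.

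Neither of the receptor genes tested was called in any comparison. Erbb3, the gene of a neuregulin receptor (chr10:128567523-128589652, minus strand), was at 34 and 23 TPM in DMSO, 32 and 22 in PFI-3, 29 and 19 in BI-9564, and 23 and 16 in P+B. Its groups overlapped, because replicate 1 exceeded replicate 2 by a factor of 1.44 to 1.53 in each of the 4 groups. P+B against DMSO gave a log2 fold change of −0.52 with an interval of −1.20 to 0.15 (limma, adjusted p = 0.3397). Within replicate numbers the ratio of P+B to DMSO was 0.676 and 0.696, and the blocked fit gave an adjusted p of 0.0366 at a fold under 1.5, which is not a call. The changes of Erbb3 with PFI-3 and BI-9564 were −0.07 and −0.24 (adjusted p = 0.9864 and 0.7514).

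Erbb2, the gene of the ligandless partner receptor, stood at 8 and 9 TPM in DMSO, 10 and 10 in PFI-3, 12 and 9 in BI-9564, and 13 and 14 in P+B. Both P+B libraries lay above all others. The log2 fold change of P+B against DMSO was 0.61, with an interval of 0.12 to 1.11 (limma, unadjusted p = 0.0212, adjusted p = 0.145), and with values near 10 TPM a step of 1 TPM from rounding is a sizeable part of the difference. Erbb2 (chr11:98412470-98437716, plus strand) overlaps Mien1 on the opposite strand, and the sources used here do not state whether reads were counted by strand, so reads from the 2 genes may have been mixed. Its changes with PFI-3 and BI-9564 were 0.21 and 0.27 (adjusted p = 0.9306 and 0.6041). The ratio of Erbb3 to Erbb2 was 4.25 and 2.56 in DMSO, 3.2 and 2.2 in PFI-3, 2.42 and 2.11 in BI-9564, and 1.77 and 1.14 in P+B, so the P+B libraries were the lowest on this measure, which was not tested.

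Errfi1 encodes MIG6, a protein that ERK signalling induces and that binds and inhibits the EGFR and ERBB2 kinases. The gene lies at chr4:150853919-150868892 on the plus strand, and the antisense gene 1700045H11Rik overlaps it. As for Erbb2, reads from both genes may have been mixed. The level of Errfi1 was 63 and 62 TPM in DMSO, 41 and 29 in PFI-3, 55 and 43 in BI-9564, and 28 and 27 in P+B. The DMSO libraries were the highest and the P+B libraries the lowest, and the PFI-3 libraries lay below both BI-9564 libraries. The means were 62.5 ± 0.707 TPM in DMSO, 35 ± 8.49 in PFI-3, 49 ± 8.49 in BI-9564 and 27.5 ± 0.707 in P+B (SD, n = 2).

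Errfi1 fell with P+B, by 1.16 on the log2 scale with a standard error of 0.18 and an interval of −1.57 to −0.74 (limma, adjusted p = 0.0125). The call was lost on leaving out any 1 of the DMSO or P+B libraries, with adjusted p of 0.0953 and 0.0912 without DMSO replicates 1 and 2, and of 0.0866 and 0.1135 without P+B replicates 1 and 2, while the fold change stayed between −1.18 and −1.13. PFI-3 gave −0.84 with a standard error of 0.18 (unadjusted p = 0.001613, adjusted p = 0.4925) and BI-9564 gave −0.36 with an interval of −0.77 to 0.06 (adjusted p = 0.4034). Neither passed. The single compounds differed from each other by 0.48 on the log2 scale, BI-9564 being higher, with an interval of 0.07 to 0.90 (limma, unadjusted p = 0.0283, adjusted p = 0.3031), so this difference too did not pass after adjustment. P+B differed from PFI-3 by −0.32 (adjusted p = 0.4275) and from BI-9564 by −0.80 (adjusted p = 0.2345), neither of which passed. For the interaction the value was 0.04 with an interval of −0.55 to 0.63.

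**Figure D3:**
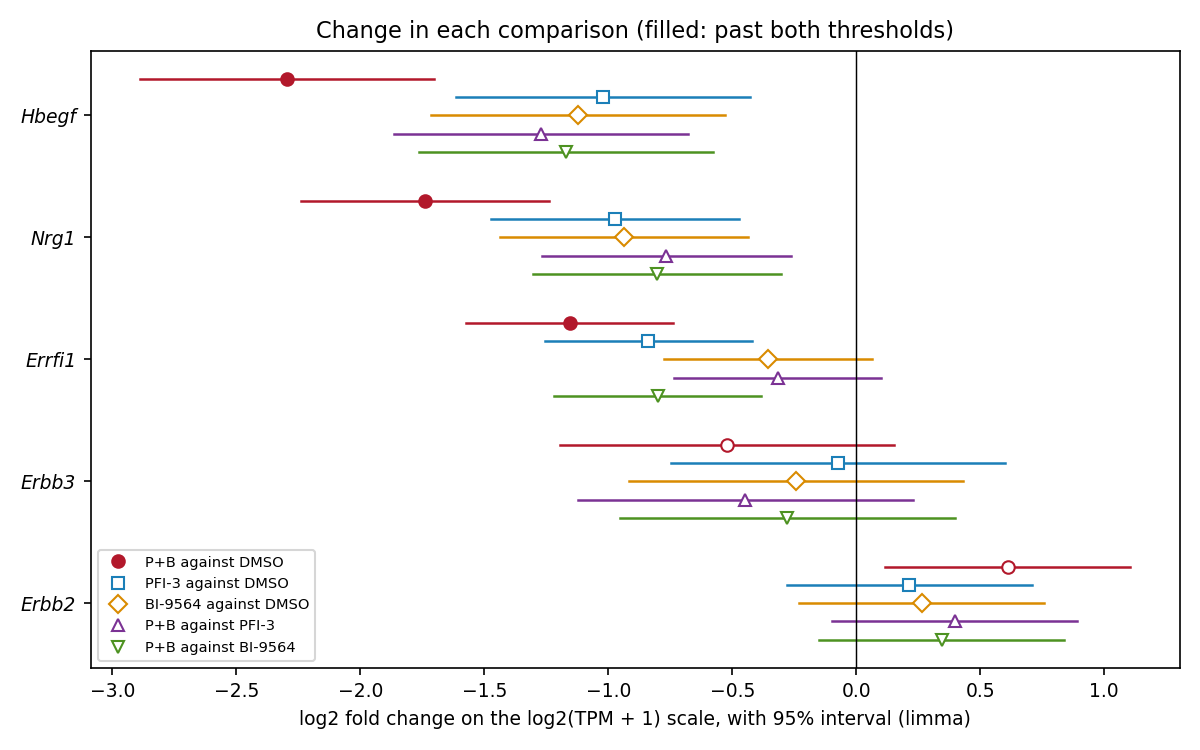
Log2 fold change (x axis, log2(TPM + 1) scale) of Hbegf, Nrg1, Errfi1, Erbb3 and Erbb2 (rows) in 5 comparisons, with 95% intervals from limma and filled symbols where a gene was called. The 3 filled symbols are Hbegf at −2.30, Nrg1 at −1.74 and Errfi1 at −1.16, all for P+B against DMSO.

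Promoter sequence was available from RefSeq (GRCm38.p6) for 5 of the 8 genes, namely Areg, Tgfa, Egfr, Erbb2 and Errfi1, as windows of 300 bases around each transcription start, with 2 windows for Errfi1. They were searched on both strands for 2 forms of the site that AP-1 and related factors bind, TGANTCA (N being any base) and TGACGTCA. Both read the same on either strand, and no stretch counts as both forms. The first form occurred in none of the 6 windows, while 7.81% of all 32851 windows held it. The second form occurred once in the Areg window and once in the second Errfi1 window, against 1.79% of all windows. The stretches that hold it are shown because Errfi1 changed and Areg was near 0, with the 8 bases of the motif in capitals. Areg is from chr5:91139508-91139575 and Errfi1 from chr4:150854989-150855056, both on the plus strand.
Areg: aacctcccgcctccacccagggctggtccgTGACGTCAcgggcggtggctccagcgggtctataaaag
Errfi1: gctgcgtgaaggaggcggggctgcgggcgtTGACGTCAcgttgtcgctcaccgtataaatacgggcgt
The motif began 61 bases before the RefSeq start of Areg and 51 bases before the second of the RefSeq starts of Errfi1, which lies inside the gene span given above. In both stretches it begins at base 31, and TATAAA, the core of the TATA box, follows at base 61 in Areg and at base 54 in Errfi1. These letters occurred on either strand in 13.6% of all windows. Of these 2 genes with the same motif, Areg was at 0 or 1 TPM in all 8 libraries and Errfi1 at 27 to 63 TPM. A match describes these letters only and does not show that a factor binds there.

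Genes that act on the ligands before they reach a receptor formed the first list. Of 11 genes for the shedding of EGF family ligands, 9 were tested and 0 were called with P+B without the block, beside 4% of all tested genes, and 3 of the 9 had an unadjusted p under 0.05 in limma. With P+B against DMSO 7 of the 9 lay above 0 and 2 below, with a median log2 fold change of 0.27, beside a median of 0.06 over all tested genes. Rhbdf2, which encodes a partner that brings ADAM17 to the cell surface, was at 15 and 13 TPM in DMSO and 26 and 21 in P+B, with a log2 fold change of 0.70 (limma, adjusted p = 0.0547). Adam17, the main sheddase of HB-EGF and TGF-alpha, was at 20 and 22 TPM in DMSO and 28 and 34 in P+B, a change of 0.54 (adjusted p = 0.0808). Adam10 was at 24 and 22 TPM in DMSO and 34 and 30 in P+B, a change of 0.46 (limma, unadjusted p = 0.01068, adjusted p = 0.1026). Adam19, a protease known to process neuregulins, was at 29 and 16 TPM in DMSO and 13 and 9 in P+B, a change of −0.93 (adjusted p = 0.3099). Under the replicate block Rhbdf2 was called higher and Adam19 lower, with adjusted p of 0.0232 and 0.0324. None of the 9 was called for either single compound without the block, and with it Rhbdf2 was called higher for BI-9564 (adjusted p = 0.0464).

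Among 20 negative regulators of EGF receptor signalling other than Errfi1, 18 were tested and 2 were called lower with P+B, beside 2.72% of all tested genes called lower. With P+B 11 lay above 0 and 6 below, and the median log2 fold change was 0.06, the same as that of all genes. Dusp5, a nuclear phosphatase that acts on ERK, was at 77 and 86 TPM in DMSO, 70 and 63 in PFI-3, 74 and 65 in BI-9564, and 34 and 28 in P+B. Its P+B libraries were below the other 6, which ranged from 63 to 86. Dusp5 fell by 1.37 on the log2 scale (limma, adjusted p = 0.002554), and it was also called lower in P+B against PFI-3 (−1.08, adjusted p = 0.0137) and against BI-9564 (−1.14, adjusted p = 0.0361). For Dusp5 the interaction was −0.85 with an interval of −1.30 to −0.41 (unadjusted p = 0.002086, adjusted p = 1).

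Socs5, a suppressor of cytokine signalling that lowers EGFR levels, was at 25 and 25 TPM in DMSO and 14 and 14 in P+B. Socs5 fell by 0.79 on the log2 scale (limma, adjusted p = 0.0438). With looser filters it was not called, at an adjusted p of 0.0596 with a mean of at least 1 and 0.0859 with no filter beyond a value above 0. Its call was lost without any 1 of the DMSO, BI-9564 or P+B libraries, with adjusted p of 0.0799 to 0.1801, whereas that of Dusp5 was kept in each case. The other Sprouty, SPRED and DUSP genes of the list were mixed. Spry2, a Sprouty protein gene, was at 19 and 17 TPM in DMSO and 33 and 25 in P+B. It was at 31 and 33 in PFI-3 and 24 and 24 in BI-9564. Its log2 fold change was 0.65 with P+B (limma, adjusted p = 0.0628) and 0.80 with PFI-3 (adjusted p = 0.4925). Dusp6, a cytoplasmic ERK phosphatase gene, was at 5 and 3 TPM in DMSO and 10 and 7 in P+B (0.94, adjusted p = 0.1479). None of these changes passed the test, and under the replicate block Spry2 was called higher with P+B (adjusted p = 0.0350). Dusp4 was at 10 and 10 TPM in DMSO and 11 and 5 in P+B (−0.37, adjusted p = 0.5538). Spred1, Spred2 and Spry1 had log2 fold changes of 0.31, 0.09 and 0.13 that did not pass, and Spry4, at 1 to 4 TPM, was not tested.

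All 24 genes listed for the core route from receptor adaptors through RAS to ERK were tested, and 2 were called lower with P+B, again beside 2.72% of all tested genes. For P+B 16 of the 24 lay above 0 and 8 below, with a median of 0.11 beside 0.06 over all tested genes. Gab1, a docking adaptor of ErbB receptors, was at 347 and 385 TPM in DMSO, 284 and 336 in PFI-3, 258 and 297 in BI-9564, and 212 and 226 in P+B, and fell by 0.74 on the log2 scale (limma, adjusted p = 0.0103). Src, a kinase that associates with the receptors, was at 63 and 60 TPM in DMSO, 59 and 51 in PFI-3, 37 and 40 in BI-9564, and 33 and 36 in P+B. It fell by 0.82 (adjusted p = 0.0103), and the BI-9564 and P+B libraries, at 33 to 40, all lay below those of DMSO and PFI-3. Src was called lower in P+B against PFI-3 (−0.66, adjusted p = 0.0473) and, under the replicate block alone, for BI-9564 against DMSO (adjusted p = 0.0380). Leaving out any 1 of the DMSO or P+B libraries ended the calls of Gab1 and Src, with adjusted p of 0.0611 to 0.0938.

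**Figure D4:**
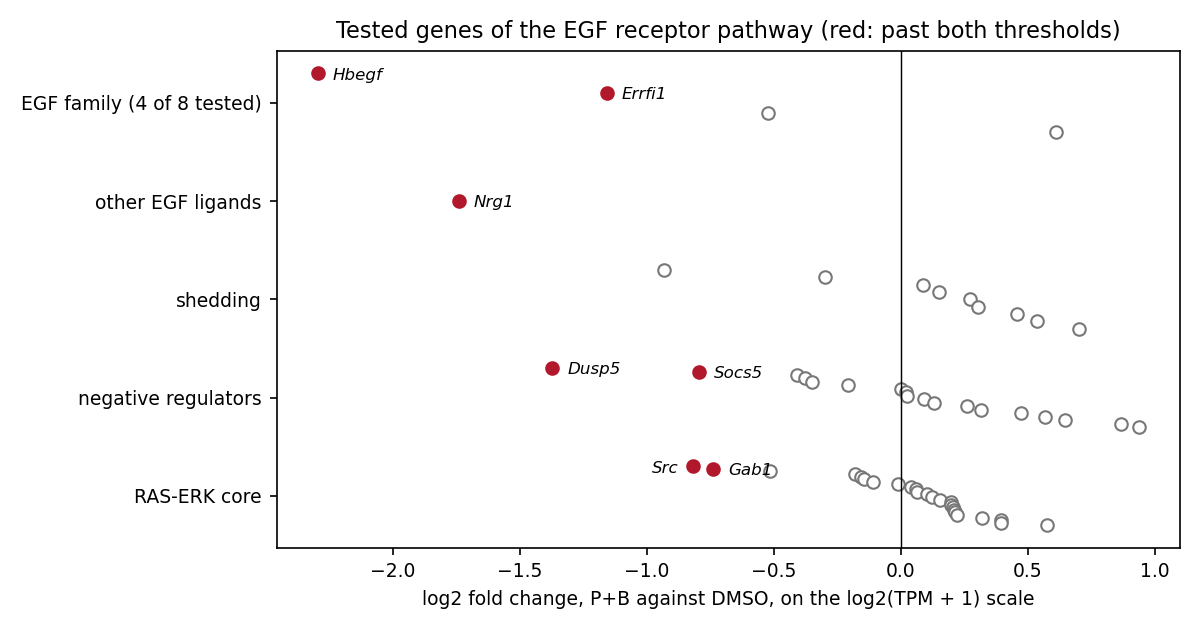
Log2 fold change of P+B against DMSO (x axis, log2(TPM + 1) scale) for each tested gene of the EGF family and of the pathway lists (rows), with called genes in red and named. The 7 called genes, Hbegf, Nrg1, Dusp5, Errfi1, Src, Socs5 and Gab1, all lie below 0, and 0 genes were called above it.

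The genes whose pattern over the 8 libraries was most like that of each family gene were found from centred log2(TPM + 1) profiles, by the root mean square difference. For Hbegf, whose own profile had a root mean square of 0.841, these were Krt18 (difference 0.168), Plet1 (0.171) and Pla2g7 (0.197). Krt18, the keratin partner of Krt8, was at 103 and 89 TPM in DMSO, 66 and 51 in PFI-3, 58 and 38 in BI-9564, and 27 and 20 in P+B. Fosl1, an AP-1 subunit taken as a reference point, stood at 47 and 67 TPM in DMSO and 12 and 9 in P+B, and Anxa1, another reference point, at 63 and 52 in DMSO and 21 and 12 in P+B.

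For Errfi1, with a root mean square of 0.468, the genes most alike were Phldb2 (0.124), Bmp1 (0.141) and Mir22hg (0.152). All 3 were weakly expressed: Phldb2 ranged from 8 TPM to 3, Bmp1 from 11 to 3 and Mir22hg from 19 to 8. Erbb3 was matched most closely by Vgll4 (0.0799), Ifitm3 (0.0884) and Cd63 (0.103), against its own root mean square of 0.335. Vgll4 shared the gap between replicate numbers, at 45 and 32 TPM in DMSO and 31 and 20 in P+B. Erbb2 was matched by Fam178a (0.0768), Eri3 (0.0807) and Pkd1 (0.0851), against 0.243, and Fam178a was at 25 and 24 TPM in DMSO and 36 and 39 in P+B. The 8 points of each profile share the libraries and only 4 treatments, and the likeness is a description without a test.

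**Figure D5:**
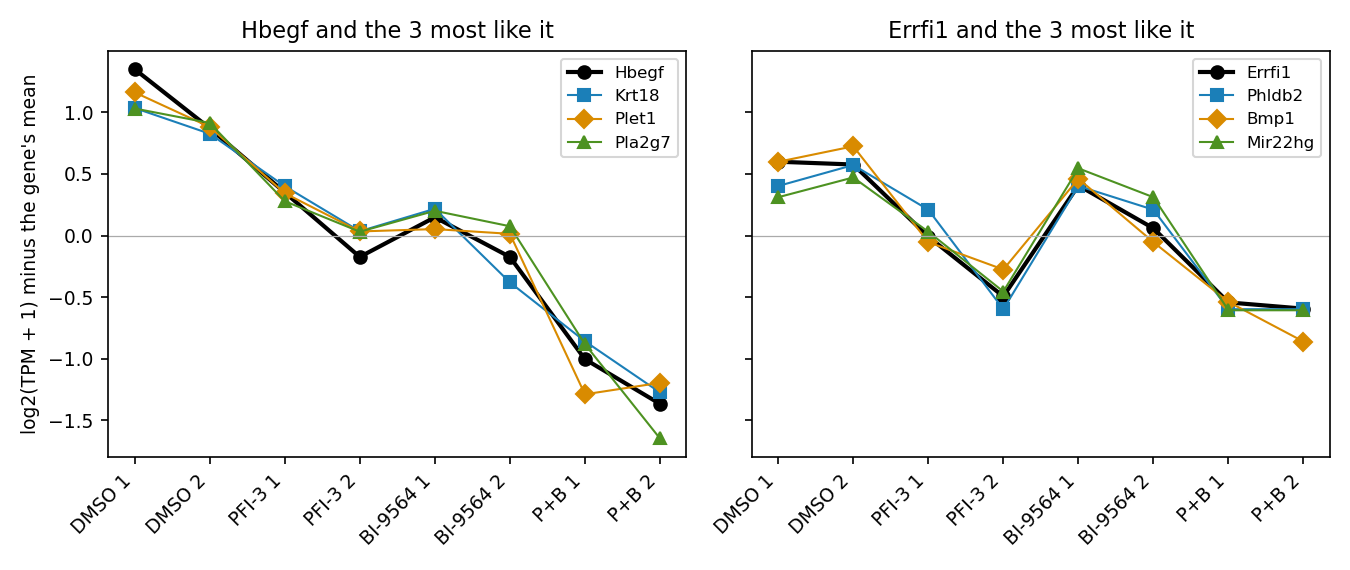
Log2(TPM + 1) minus the mean of each gene (y axis) in the 8 libraries (x axis, treatment and replicate number), for Hbegf (left, black) and Errfi1 (right, black), each with the 3 genes of most similar pattern. The Hbegf profile steps down from DMSO through the single compounds to P+B, whereas the Errfi1 profile is higher in BI-9564 than in PFI-3.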

How the data were processed

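The values deposited for 50600 gene names in 8 libraries are a score, being TPM that the authors turned into whole numbers. The submitters' processing notes name bcl2fastq, Bowtie2 2.2.5, RSEM 1.3.0 and mm10. Their order and strand settings are not given in the sources used here. Values were analysed as log2(TPM + 1), a scale that understates changes of low genes, with limma 3.58.1 in R 4.3.3 (lmFit, then eBayes with a trend). The fit over all 8 libraries took the 10222 genes that averaged 5 or more, with 4 residual and 4.3 prior degrees of freedom, and p-values were adjusted over all genes by Benjamini-Hochberg. A call needed an adjusted p under 0.05 and a fold of at least 1.5. Because TPM keeps no depth, count models were not used. The script was tested on simulated data.

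Replicate numbers in the labels were checked for pairing. Deviations from group means of same-numbered libraries correlated at 0.143 to 0.236 across genes in all 6 pairs of groups. The main fit left the replicate number out and is unpaired, and an alternative fit used it as a block. That the numbers pair the libraries rests on the data alone, because the labels name no shared batch. Blocked values are given where they change a call of a family gene, of Nrg1 or of a pathway list gene. For the cell type markers and the reference points they are not given in full.

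The genes, lists, tests and alternatives were chosen with earlier results of these data known. Named were the 8 family genes, list genes averaging 5 or more (of the RAS-ERK core, called genes), Jun, Fosl1 and Anxa1 as reference points, and the 3 genes most alike each tested family gene. The trophoblast markers were named after their values were seen. Alternatives changed the pseudocount, filter, normalization, trend, block, groups fitted and libraries. Positions come from GENCODE M21 (GRCm38).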

Additional observations from a re-analysis of the deposited data

How the results depend on the processing

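With P+B against DMSO, 2 genes of the set were called. That count was 1 with no filter beyond a value above 0, 0 with only the 2 groups compared in the fit, and 0 to 2 on leaving out 1 library at a time. It was 1 without DMSO replicate 2, P+B replicate 1 or P+B replicate 2, and 0 without DMSO replicate 1. Under the replicate block 1 gene, Hbegf, was called for BI-9564 against DMSO, for P+B against PFI-3 and for P+B against BI-9564, where no gene had been called without it, and quantile normalization gave 1 for P+B against PFI-3. The block changed no other call among Hbegf, Errfi1, Erbb2, Erbb3 and Nrg1. Of the pathway list genes, it added those named with the lists above and Socs5 in P+B against PFI-3 (adjusted p = 0.0408).

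Leaving out libraries moved Hbegf between −2.53 and −2.06, Errfi1 between −1.18 and −1.13 and Nrg1 between −1.92 and −1.56 for P+B against DMSO. Small differences changed sign. Leaving out libraries, Erbb3 ranged from −0.35 to 0.20 for PFI-3, from −0.54 to 0.050 for BI-9564 and from −0.57 to 0.014 for P+B against BI-9564. Hbegf ranged from −0.36 to 0.16 for BI-9564 against PFI-3, and the interaction from −0.41 to 0.11 for Hbegf and −0.20 to 0.28 for Errfi1. The interaction also changed sign for Hbegf with a pseudocount of 5 (0.015) and for Errfi1 with quantile normalization (−0.020). The cause was not tested.

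Over all genes, P+B against DMSO gave 409 calls, 131 higher and 278 lower. The split was 86 and 401 with median centring and 81 and 305 with quantile normalization. The block gave 718 calls, no filter 201, only the 2 groups 0 (1962 genes at an unadjusted p under 0.05), and leaving out a library 68 to 268. Calls for BI-9564 against DMSO rose from 11 to 156 under the block. Rounding to whole TPM limits genes of low level, such as Erbb2, and no difference could be read for Egfr, Tgfa, Areg or Ereg. A mean of at least 20 left out Erbb2 and Nrg1.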
